A study of Mus musculus with 6 samples.

Results

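The genes described here are the Toll-like receptors *Tlr1*, *Tlr2*, *Tlr3*, *Tlr4*, *Tlr6*, *Tlr7* and *Tlr9* and the coreceptors *Cd14*, *Ly96* and *Cd180*, measured by RNA-seq in mouse LSK cells, the Lin-Sca1+c-Kit+ bone marrow fraction that holds hematopoietic stem and progenitor cells (HSPCs). They were chosen by gene name and make up 10 of the 54532 genes in the deposited table. Mice of the genotype *Myh9* fl/fl:*Mx1-cre* (cKO) were the source of one group of LSK cells, and the other group came from littermates that carried the same floxed *Myh9* alleles and no cre (control, CTRL), all on a C57BL/6 background, with 3 libraries in each group. Both groups received poly I:C at 5 mg/kg, in 2 doses by the sample descriptions and in 3 by the study's methods, injected at 5 to 6 weeks of age, and 100000 LSK cells were sorted for a library 4 days after the first injection. The number of mice behind each library is not stated, so the p-values measure the spread between these libraries, which may be technical in part. *Mx1-cre* is switched on by interferon and is not limited to blood cells. No library came from mice without poly I:C, so the effect of the injection itself was not measured, and only the difference between cKO and control LSKs after it is given.

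Toll-like receptors recognize microbial molecules and start inflammatory and interferon signalling. *Tlr2* pairs with *Tlr1* or *Tlr6* to bind bacterial lipopeptides, while *Tlr4* binds lipopolysaccharide together with *Ly96* (MD-2), to which *Cd14* delivers the ligand. *Tlr3*, *Tlr7* and *Tlr9* sit in endosomes and bind double-stranded RNA, single-stranded RNA and unmethylated CpG DNA, and poly I:C, a synthetic double-stranded RNA, is a ligand of *Tlr3*. *Cd180* (RP105) resembles *Tlr4*, pairs with *Ly86* (MD-1) and is best known from B cells. In bone marrow, HSPCs carry several of these receptors, which are more abundant on monocytes and macrophages.

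In cKO LSKs, mean *Cd14* fell by 82.7% against control, *Tlr2* fell by 32.2% and *Tlr1* fell by 35.1%, and these 3 were the members past an adjusted p of 0.05. *Tlr4*, *Tlr6*, *Tlr7*, *Ly96* and *Cd180* did not pass, and *Tlr3* and *Tlr9* were too low to be tested with the other genes. Levels are in FPKM, which divides the fragments of a gene by its length and by the size of the library. The limma test was run on log2(FPKM + 1) for every gene whose mean over both groups reached 1 FPKM, 11552 in all. Of the 10 members 8 were tested, of which 3 were called lower and 0 higher at an adjusted p under 0.05, where 40.5% of all genes tested were called in either direction and 20.6% were called lower. Before adjustment in this limma fit across all genes, *Tlr4* and *Tlr7* were also under 0.05 beside the 3 called, and the count of members called higher was 1 without the trend and 0 in limma-voom. The share called among the members was close to that among all genes. Past 2-fold, with an unadjusted p under 0.05, stood 2.13% of all genes tested and 1 member, *Cd14*. The median log2 fold change was -0.22 over the 5 receptors tested and -0.054 over the 3 coreceptors, beside -0.0096 over all genes tested.

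**Figure D1:**
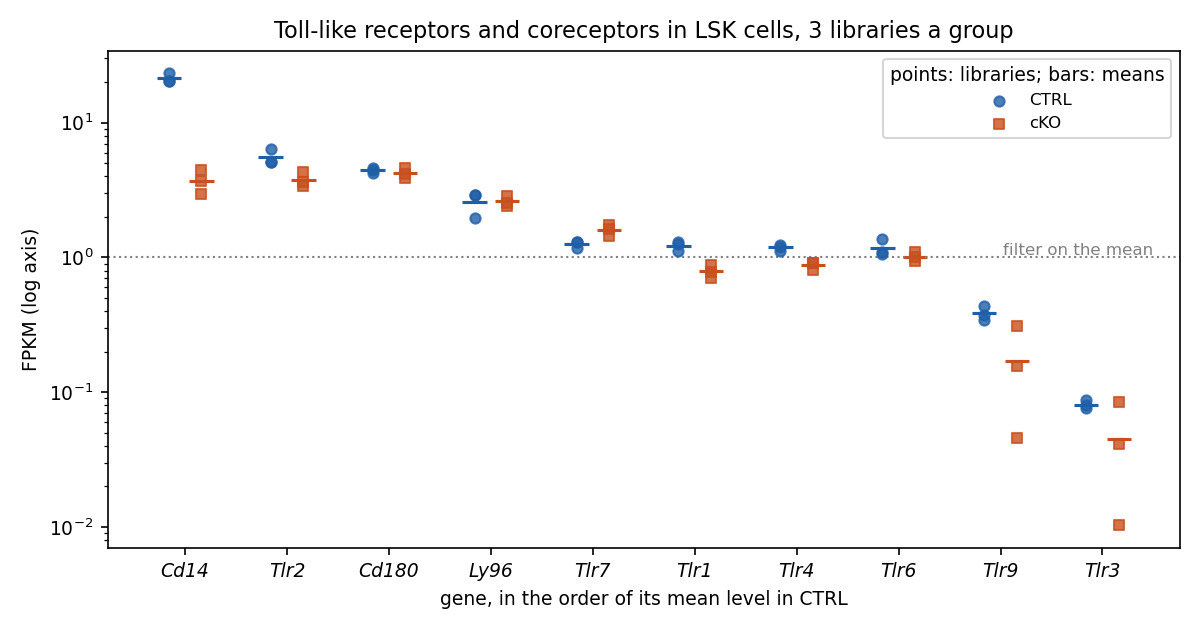
FPKM (log axis) of the 10 genes in each library, with control (CTRL) as circles, cKO as squares and the group means as bars; the dotted line is the filter of 1 FPKM on the mean over all libraries. The cKO libraries lie below all control libraries for *Cd14*, *Tlr2*, *Tlr1*, *Tlr4* and *Tlr9* and above them for *Tlr7*, and *Tlr3* and *Tlr9* lie under the filter.

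The libraries held 17571544 to 19894562 reads on genes, and 3 reads of a gene of 1 kilobase, taken as the floor of detection, correspond to 0.151 to 0.170 FPKM. *Myh9*, the targeted gene, was measured at 22.98, 22.62 and 22.00 FPKM in control and at 18.40, 19.96 and 17.65 FPKM in cKO libraries, with no overlap (log2 fold change -0.26, adjusted p = 0.00642, limma). Mean *Myh9* mRNA fell by 17.1%, and reads of the deleted exon cannot be separated in a table of 1 value per gene. The LSK markers *Kit* and *Ly6a*, the gene of Sca-1, were present in both groups, at 23.9 and 95.4 FPKM in control and 21.5 and 89.5 FPKM in cKO LSKs. Of 12 markers of monocytes and macrophages, 9 were tested and all 9 were lower in cKO LSKs, where 20.6% of all genes tested were called lower. Their summed level was 686 to 721 FPKM in control and 312 to 332 FPKM in cKO libraries, mostly from *Ly6c2* and *Lyz2*. *Csf1r*, the receptor that defines the monocyte lineage, went from 25.6 to 8.70 FPKM, and *Ms4a7*, a gene of mature macrophages, had a mean under 0.1 FPKM over the 6 libraries. *Adgre1*, 1 of the 9, reached the filter through its control libraries, with means of 1.56 FPKM in control and 0.590 FPKM in cKO LSKs. Since every library is a bulk sample, fewer cells of a type and less RNA per cell cannot be told apart.

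Parts of the sequence bear on what can be counted for these genes. Shown here are a run shared by *Tlr1* and *Tlr6* and the promoters of *Tlr1*, *Tlr2* and *Tlr9*. *Tlr1* and *Tlr6* are neighbours on chromosome 5 and share a part of their sequence. Of the 50-base windows of *Tlr1* transcripts, 15.4% occurred in another gene, 454 of 513 such windows in *Tlr6*, and 12.3% of those of *Tlr6* did. No window of *Tlr2*, *Tlr7*, *Tlr9*, *Cd14* or *Ly96* was shared. The longest run that is the same in both coding sequences has 229 bases, at coding positions 1468 to 1696 of 2388 in *Tlr1* and 1507 to 1735 of 2421 in *Tlr6* (GENCODE M21, GRCm38). Reads that fall inside this run cannot be assigned to one of the genes, and how such reads were counted is not given in the sources used here.
Tlr1 and Tlr6, shared coding run: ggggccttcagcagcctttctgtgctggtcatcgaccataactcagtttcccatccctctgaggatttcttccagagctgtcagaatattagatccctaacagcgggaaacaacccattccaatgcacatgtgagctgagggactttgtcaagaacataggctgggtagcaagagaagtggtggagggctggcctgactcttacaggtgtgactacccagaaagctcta

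The promoters of *Tlr1*, *Tlr2* and *Tlr9* are shown because the control and cKO libraries of these genes did not overlap and a searched motif was found in them. For *Tlr1*, a second RefSeq start, with a window at chr5:64932700-64932949, held no match and is not shown, and the promoter of *Cd14* was not analysed here. They come from the RefSeq promoter table of GRCm38.p6, cut to the bases that precede the first exon in GENCODE M21. Matches are in capitals, as the binding letters GAGGAAG of PU.1 and other ETS factors in *Tlr1* and *Tlr9*, TGACTCA of AP-1 in *Tlr9*, and the NF-kB consensus in *Tlr2*.
Tlr1, chr5:64933564-64933808, minus strand: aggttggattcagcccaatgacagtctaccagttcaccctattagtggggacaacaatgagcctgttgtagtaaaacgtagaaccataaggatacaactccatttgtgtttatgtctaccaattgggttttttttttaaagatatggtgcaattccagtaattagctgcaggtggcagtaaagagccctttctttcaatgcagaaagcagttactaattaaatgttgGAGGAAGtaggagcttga
Tlr2, chr3:83841768-83841858, minus strand: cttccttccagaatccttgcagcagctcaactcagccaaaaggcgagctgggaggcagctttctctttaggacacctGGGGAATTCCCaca
Tlr9, chr9:106222348-106222597, plus strand: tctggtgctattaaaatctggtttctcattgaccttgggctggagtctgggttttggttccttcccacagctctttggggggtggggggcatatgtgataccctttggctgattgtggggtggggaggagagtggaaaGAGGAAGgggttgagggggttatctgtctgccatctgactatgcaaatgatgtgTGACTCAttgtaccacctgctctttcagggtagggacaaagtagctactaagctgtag

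Counted from the start site that RefSeq gives, the first base of the ETS match lies at -23 in *Tlr1* and -112 in *Tlr9*, that of the AP-1 match at -58 in *Tlr9*, and those of 2 overlapping NF-kB matches at -173 and -172 in *Tlr2*. *Tlr3* held an NF-kB match at -211, and the windows of *Tlr6* and *Cd180* held none of the 4 motifs searched. In the 250 bases upstream of 32851 RefSeq starts, searched on both strands, GAGGAAG was found in 10.6%, TGANTCA (AP-1) in 6.75%, the NF-kB consensus in 7.25% and the interferon-stimulated response element in 0.146%. The motifs were chosen after the values of the genes had been seen. A match describes letters in a window, and no binding was measured here.

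The coreceptors held both the member with the largest difference and those with the smallest. *Cd14* (ENSMUSG00000051439, minus strand of chromosome 18 from 36725074 to 36726736) is the surface protein that collects lipopolysaccharide for *Tlr4* and lipopeptides for *Tlr2*. It was measured at 20.2, 20.3 and 23.2 FPKM in control libraries and at 4.42, 3.66 and 2.94 FPKM in cKO libraries. These values rest on 632, 563 and 700 reads in control and on 130, 105 and 86 reads in cKO libraries. The highest cKO library lay far below the lowest control library, and the libraries within a group differed little by comparison. The mean went from 21.2 ± 1.69 to 3.67 ± 0.738 FPKM (SD, n = 3), a ratio of 0.173. The log2 fold change was -2.26 (95% interval -2.54 to -1.98, SE 0.12, adjusted p = 3.54e-05, limma), the 7th lowest of the 11552 genes tested. By mean level, *Cd14* stood at place 2808 among all genes in control and at place 8136 in cKO LSKs. The call held in every alternative run, with log2 fold changes of -2.37 to -2.14 when each library was left out in turn. The deposited gene length of *Cd14* is 1572 bases where the exons of GENCODE M21 cover 1732, which scales its level but not its change. The monocyte and macrophage markers moved in the same direction, with a median log2 fold change of -1.06 (range -1.46 to -0.19) over the 9 tested, and their part in the fall of *Cd14* was not tested.

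*Ly96* (ENSMUSG00000025779, chromosome 1 from 16688051 to 16709611) is the protein that holds lipopolysaccharide in the pocket it forms with *Tlr4*. It was measured at 2.91, 1.95 and 2.91 FPKM in control and at 2.88, 2.42 and 2.53 FPKM in cKO libraries, from 35 to 59 reads each. The groups overlapped, and the lowest value was that of control library 2. The log2 fold change was 0.018 (95% interval -0.28 to 0.31, adjusted p = 0.919, limma), and it was -0.12 without control library 2 and -0.035 without cKO library 1, so no direction can be given. *Cd180* (ENSMUSG00000021624, chromosome 13 from 102693558 to 102739629) was measured at 4.63, 4.42 and 4.23 FPKM in control and at 3.91, 4.15 and 4.64 FPKM in cKO libraries. The groups overlapped fully, with the highest and the lowest value both in cKO libraries. The log2 fold change of *Cd180* was -0.054 (95% interval -0.21 to 0.10, adjusted p = 0.549, limma). The interval does not reach a fall like that of *Cd14*. Of the exon bases of *Cd180*, 4.04% overlap *Mast4* on the opposite strand, and whether the counting used strand is not given in the sources used here.

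**Figure D2:**
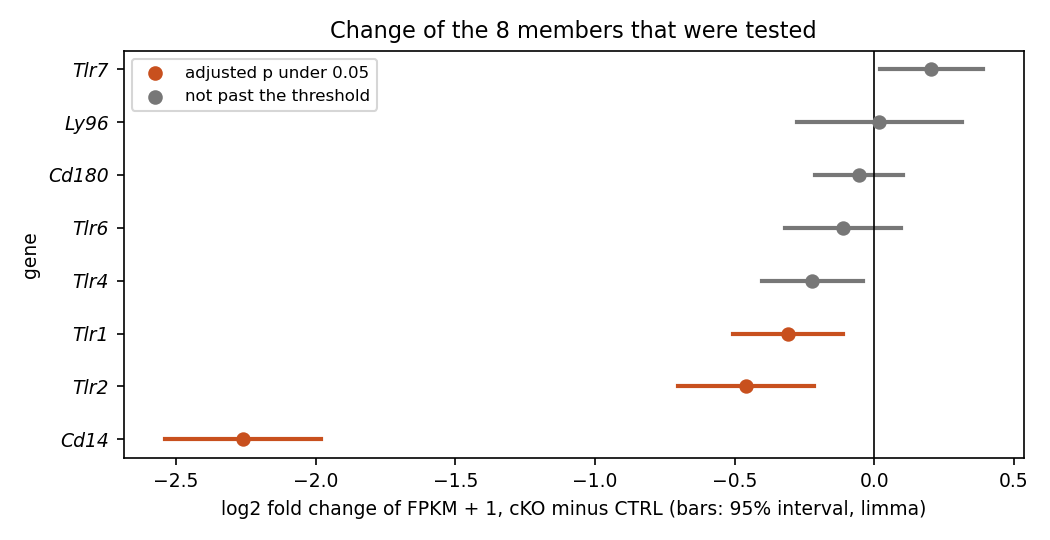
Log2 fold change of FPKM + 1, cKO minus control, of the 8 members tested (points) with 95% intervals from limma (bars); colour marks an adjusted p under 0.05. *Cd14* stands apart at -2.26, *Tlr2* and *Tlr1* are past the threshold at -0.46 and -0.31, and the intervals of *Ly96*, *Cd180* and *Tlr6* cross 0.

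Of the receptors at the cell surface, *Tlr2* and its partner *Tlr1* were lower in cKO LSKs. *Tlr2* (ENSMUSG00000027995, minus strand of chromosome 3 from 83836272 to 83841767), the shared chain of the lipopeptide receptors, was measured at 5.12, 6.40 and 5.12 FPKM in control and at 3.38, 3.62 and 4.28 FPKM in cKO libraries. These values rest on 296 to 340 reads in control and on 191 to 240 reads in cKO libraries. All control libraries were above all cKO libraries, with the closest pair at 5.12 and 4.28 FPKM. The mean was 5.55 ± 0.740 FPKM in control and 3.76 ± 0.464 FPKM in cKO LSKs, which gave a log2 fold change of -0.46 (95% interval -0.70 to -0.21, SE 0.10, adjusted p = 0.0127, limma). The adjusted p stayed between 0.0127 and 0.0421 when each library was left out in turn (limma). The fall of *Tlr2* was smaller than the median of -1.06 over the monocyte and macrophage markers, whose part in it was not tested.

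*Tlr1* (ENSMUSG00000044827, minus strand of chromosome 5 from 64924679 to 64933563), which pairs with *Tlr2* for triacylated lipopeptides, was measured at 1.25, 1.12 and 1.29 FPKM in control and at 0.782, 0.885 and 0.707 FPKM in cKO libraries. These values rest on 66 to 83 reads in control and on 44 to 54 reads in cKO libraries, with no overlap between groups. *Tlr1* had a log2 fold change of -0.31 (95% interval -0.51 to -0.11, SE 0.083, adjusted p = 0.0240, limma). *Tlr1* passed the filter on low values through its control libraries, with a mean of 1.01 FPKM over all 6, so that its entry into the test depends on the group where it was high, as does that of *Tlr4*. Its call was lost without control library 1 (adjusted p = 0.0724, limma), control library 3 (0.0730), cKO library 1 (0.0597) or cKO library 3 (0.0663), while the log2 fold change stayed between -0.35 and -0.28. Reads shared with *Tlr6*, described above, could have been split between the genes.

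*Tlr6* (ENSMUSG00000051498, minus strand of chromosome 5 from 64952031 to 64960097), the partner of *Tlr2* for diacylated lipopeptides, was measured at 1.36, 1.07 and 1.10 FPKM in control and at 1.09, 1.02 and 0.937 FPKM in cKO libraries. The groups overlapped, since cKO library 1 was above control library 2. Its log2 fold change was -0.11 (95% interval -0.32 to 0.097, adjusted p = 0.351, limma). This interval includes the change of *Tlr1*, and whether *Tlr1* and *Tlr6* differ in their change was not tested. *Tlr4* (ENSMUSG00000039005, chromosome 4 from 66827584 to 66930284), the lipopolysaccharide receptor, was measured at 1.19, 1.12 and 1.25 FPKM in control and at 0.903, 0.908 and 0.812 FPKM in cKO libraries. The groups did not overlap, and the spread within each was narrow, from 110 to 133 reads in control and from 84 to 94 reads in cKO libraries. For *Tlr4* the log2 fold change was -0.22 (95% interval -0.40 to -0.042, adjusted p = 0.0552, limma). It did not pass, although it did with quantile normalization (adjusted p = 0.0376, limma), without a trend (0.0088) and in limma-voom on the recovered reads (0.0356, and 0.0447 in a fit with more genes, described below for *Tlr9*).

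Of the receptors of the endosome, *Tlr7* was tested and did not pass, and *Tlr3* and *Tlr9* lay under the filter. *Tlr7* (ENSMUSG00000044583, minus strand of chromosome X from 167304929 to 167330558), the sensor of single-stranded RNA, was measured at 1.31, 1.17 and 1.30 FPKM in control and at 1.74, 1.44 and 1.63 FPKM in cKO libraries, from 84 to 133 reads. All cKO libraries were above all control libraries, which makes *Tlr7* the only one of the 10 members with separated groups and higher cKO values. The mean was 1.26 ± 0.0787 FPKM in control and 1.60 ± 0.153 FPKM in cKO LSKs, and the log2 fold change was 0.20 (95% interval 0.019 to 0.39, adjusted p = 0.0769, limma). It passed only without a trend (adjusted p = 0.0317, limma). Of the 8 members tested, *Cd14*, *Tlr1*, *Tlr2*, *Tlr4* and *Tlr7* had groups that did not overlap, 5 of 8, beside 54.0% of all genes tested.

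*Tlr9* (ENSMUSG00000045322, chromosome 9 from 106222598 to 106226883), the sensor of CpG DNA, lay under the filter. It was measured at 0.434, 0.375 and 0.345 FPKM in control and at 0.0461, 0.158 and 0.309 FPKM in cKO libraries, from 30, 23 and 23 reads and from 3, 10 and 20 reads. The control libraries were all above the cKO libraries, but the cKO libraries were spread widely, and cKO library 1 was at the floor of 3 reads. A limma-voom fit on the recovered reads of genes with at least 10 reads in all, added after the data were seen, called 32.6% of 18035 genes and gave *Tlr9* a log2 fold change of -1.45 (95% interval -2.51 to -0.40, adjusted p = 0.0311). The call rests on single libraries: it was lost without cKO library 1 (log2 fold change -0.75, adjusted p = 0.238, limma-voom), cKO library 2 (adjusted p = 0.0611), control library 1 (0.0834) or control library 2 (0.0508), and the log2 fold change was -2.04 without cKO library 3.

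*Tlr3* (ENSMUSG00000031639, minus strand of chromosome 8 from 45395665 to 45411080), the receptor whose ligand all mice had received, was the lowest member in both groups. It was measured at 0.0869, 0.0763 and 0.0801 FPKM in control and at 0.0410, 0.0843 and 0.0103 FPKM in cKO libraries. These values are 9, 7 and 8 reads in control and 4, 8 and 1 reads in cKO libraries, the last under the floor. The groups overlapped, and the added limma-voom fit gave a log2 fold change of -1.10 (95% interval -2.56 to 0.37, adjusted p = 0.264). A difference in *Tlr3* was not detectable at this depth. In addition, 381 exon bases of *Tlr3*, or 7.32%, overlap *Gm45542*, an antisense gene on the opposite strand, so that a part of even these few reads may not belong to *Tlr3*.

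Set in order of length-scaled level, the members of control LSKs ran from *Cd14* at 21.2 FPKM through *Tlr2* at 5.55, *Cd180* at 4.42 and *Ly96* at 2.59 FPKM, each with a range apart from the next. *Tlr7*, *Tlr1*, *Tlr4* and *Tlr6* followed between 1.26 and 1.18 FPKM with overlapping ranges, and *Tlr9* at 0.385 and *Tlr3* at 0.0811 FPKM came last. In cKO LSKs, *Cd180* at 4.23, *Tlr2* at 3.76 and *Cd14* at 3.67 FPKM overlapped at the top. *Ly96* at 2.61, *Tlr7* at 1.60 and *Tlr6* at 1.01 FPKM each stood apart from their neighbours, *Tlr4* at 0.875 and *Tlr1* at 0.791 FPKM overlapped, and so did *Tlr9* at 0.171 and *Tlr3* at 0.0452 FPKM. The 10 members summed to 38.5, 38.0 and 40.8 FPKM in control and to 19.2, 18.3 and 18.8 FPKM in cKO libraries. *Cd14* made up 52.5%, 53.5% and 56.8% of this sum in control and 23.0%, 20.0% and 15.6% in cKO libraries. The 7 receptors alone summed to 10.7, 11.3 and 10.5 FPKM in control and to 7.98, 8.11 and 8.69 FPKM in cKO libraries, which did not overlap either. *Tlr2*, with means of 5.55 and 3.76 FPKM, was the largest part of these sums. *Tlr7* went the other way, with means of 1.26 and 1.60 FPKM.

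The balance between partners was compared as the ratio of their FPKM within each library, for 6 pairs, with an exact permutation test (two-sided), for which 3 libraries against 3 cannot give a p below 0.1. The ratio of *Cd14* to *Tlr4* was 17.1, 18.1 and 18.6 in control and 4.89, 4.03 and 3.62 in cKO libraries. The ratio of *Ly96* to *Tlr4* was 2.45, 1.73 and 2.33 in control and 3.18, 2.66 and 3.11 in cKO libraries. Both pairs had groups that did not overlap (exact p = 0.1, adjusted over the 6 pairs 0.15), in opposite directions, with differences of -2.11 and 0.47 in the mean log2 ratio. The ratio of *Cd180* to *Ly86* was 0.295, 0.285 and 0.249 in control and 0.732, 0.731 and 0.856 in cKO libraries, again apart (exact p = 0.1, adjusted 0.15). *Ly86*, the secreted partner that *Cd180* needs at the surface, was at 16.1 FPKM in control and 5.48 FPKM in cKO LSKs. The ratio of *Tlr9* to *Tlr7* was 0.332, 0.321 and 0.265 in control and 0.0265, 0.110 and 0.189 in cKO libraries, also apart (exact p = 0.1, adjusted 0.15). The ratios of *Tlr1* to *Tlr2* ran from 0.175 to 0.253 in control and from 0.165 to 0.244 in cKO libraries (exact p = 0.6), and those of *Tlr6* to *Tlr2* from 0.166 to 0.266 and from 0.219 to 0.322 (exact p = 0.2). In these pairs the groups overlapped. None of the 6 pairs could pass 0.05 with this test at 3 libraries against 3.

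**Figure D3:**
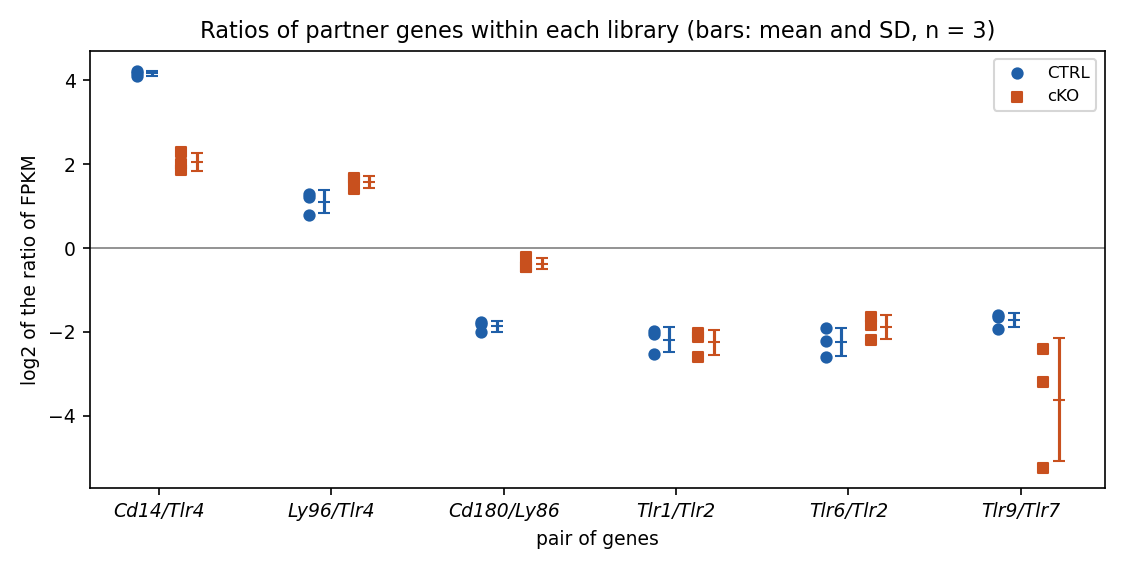
Log2 of the FPKM ratio of 6 pairs of partner genes in each library, with control as circles and cKO as squares; the bars beside them give the mean and SD over 3 libraries. The groups are apart for *Cd14*/*Tlr4*, *Ly96*/*Tlr4*, *Cd180*/*Ly86* and *Tlr9*/*Tlr7* and overlap for *Tlr1*/*Tlr2* and *Tlr6*/*Tlr2*, and the cKO libraries of *Tlr9*/*Tlr7* are spread most.

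The genes whose profile over the 6 libraries was most like that of *Cd14*, by Euclidean distance between centred log2(FPKM + 1) values, were *Atf3* at 0.37, *Hspa1b* at 0.43, *Igkv4-53* at 0.47, *Ighv9-2* at 0.48 and *Ighv5-12* at 0.48. *Atf3* encodes a transcription factor induced by stress and by Toll-like receptors, *Hspa1b* an inducible heat shock protein, and the other three are immunoglobulin variable segments. *Atf3* was at 14.1 FPKM in control and 1.93 FPKM in cKO LSKs. *Hspa1b* and the segments have near copies in the genome, so their counts are uncertain. Close to *Tlr3* were *Trap1*, *Rap1gds1*, *Zfp512* and *Nsd1*, at distances of 0.022 to 0.032, all of them nearly flat over the libraries, as is any gene with so few reads on this scale.

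Beyond the members, 96 genes of the pathway were listed by role, of which 77 were tested. Of these, 41 were lower and 6 higher in cKO LSKs, or 61.0% called, beside 40.5% of all genes tested, with a median log2 fold change of -0.20. The count of 6 higher fell to 2 without control library 1, control library 2 or cKO library 1 and to 3 without cKO library 3, while the count of lower genes stayed between 33 and 40 with each library left out. Of the 9 other receptors and ligand carriers 3 were tested and 2 were lower. These were *Ly86* (log2 fold change -1.40) and *Lbp*, the carrier that brings lipopolysaccharide to *Cd14*, which went from 24.8 to 14.3 FPKM (log2 fold change -0.75). *Hmgb1*, an endogenous ligand, did not pass.

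All 11 genes of receptor folding, trafficking and cleavage were tested, and 6 were lower and 1 higher (median -0.26), or 63.6% called, beside 40.5% of all genes tested. *Unc93b1*, the protein that escorts *Tlr3*, *Tlr7* and *Tlr9* to endosomes, fell from 97.8 to 54.9 FPKM (log2 fold change -0.82). *Ctsb*, a cathepsin, and *Cnpy3*, a chaperone of several Toll-like receptors, had log2 fold changes of -0.47 and -0.44. *Ctsl*, another cathepsin, was the gene called higher (0.22), and with each library left out the list held 0 genes called higher, except without cKO library 2. Among 6 adaptors, 5 were tested. *Myd88*, used by nearly all Toll-like receptors, rose by 0.15 on the log2 scale, between means of 20.3 and 22.6 FPKM (adjusted p = 0.0133, limma). *Ticam2* (TRAM), which links *Tlr4* to the interferon branch, fell by 0.60, between means of 4.69 and 2.76 FPKM (adjusted p = 0.000512, limma). *Ticam1* (TRIF), the adaptor of *Tlr3*, was at 5.56 FPKM in control and 4.95 FPKM in cKO LSKs and did not pass.

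Of 25 kinases, ubiquitin ligases and transcription factors, 23 were tested, with 7 lower and 2 higher (median -0.15). The 39.1% called in this list was close to the 40.5% of all genes tested. The largest falls among the genes called were those of *Tifa*, an activator of *Traf6* that went from 17.2 to 10.5 FPKM (log2 fold change -0.66), *Ikbke* (-0.30) and *Ripk1* (-0.20), and the rises were those of *Ube2n* (0.16) and *Irf3* (0.10). The count of 7 lower was small in size of effect and fell to 2 without control library 1, to 3 without control library 2 or cKO library 1 and to 4 without control library 3 or cKO library 2. All 13 inhibitors were tested, with 8 lower and 1 higher (median -0.20), or 69.2% called, beside 40.5% of all genes tested. *Tifab*, a restraint on *Traf6* that the study names, fell from 86.7 to 28.6 FPKM (log2 fold change -1.57), and *Tnfaip3* (A20), a brake on NF-kB, from 6.22 to 2.93 FPKM (-0.88). *Tnip1*, which acts with A20, had a log2 fold change of -0.38, and *Tnip2* was higher (0.14), but with each library left out the list held 0 genes called higher, except without control library 3.

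The sensors of double-stranded RNA in the cytosol, which can also meet poly I:C, were tested in full. Of the 12, 10 were lower in cKO LSKs, or 83.3% called, beside 20.6% of all genes tested called lower and 40.5% in either direction. All 12 log2 fold changes were negative, with a median of -0.27 and a range of -0.51 to -0.017. *Oas3* went from 2.73 to 1.61 FPKM (-0.51), *Dhx58*, a regulator of RIG-I-like receptors, from 9.76 to 6.84 FPKM (-0.46) and *Oas1a* from 34.1 to 26.1 FPKM (-0.38). *Ddx58* (RIG-I) and *Eif2ak2* (PKR) did not pass and are named because they were the only ones. Many of these genes are themselves induced by interferon.

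Of 20 inducible products of Toll-like receptor signalling, 10 were tested, and 7 were lower and 1 higher, with a median log2 fold change of -0.70. This is 80% called, beside 40.5% of all genes tested. *Zfp36*, which ends cytokine messages, fell from 63.2 to 27.1 FPKM (-1.19), the chemokine *Ccl4* from 62.8 to 28.1 FPKM (-1.14) and *Ptgs2*, the inducible cyclooxygenase, from 2.20 to 0.570 FPKM (-1.02). *Ptgs2* reached the filter through its control libraries. The chemokine *Ccl5* rose from 10.1 to 35.5 FPKM (1.73). *Tnf* and *Cxcl10* did not pass, and *Ifnb1* and *Il12b* had 0 reads in all 6 libraries. The products were thus not of 1 direction, and the count called higher was 2 without cKO library 2.

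**Figure D4:**
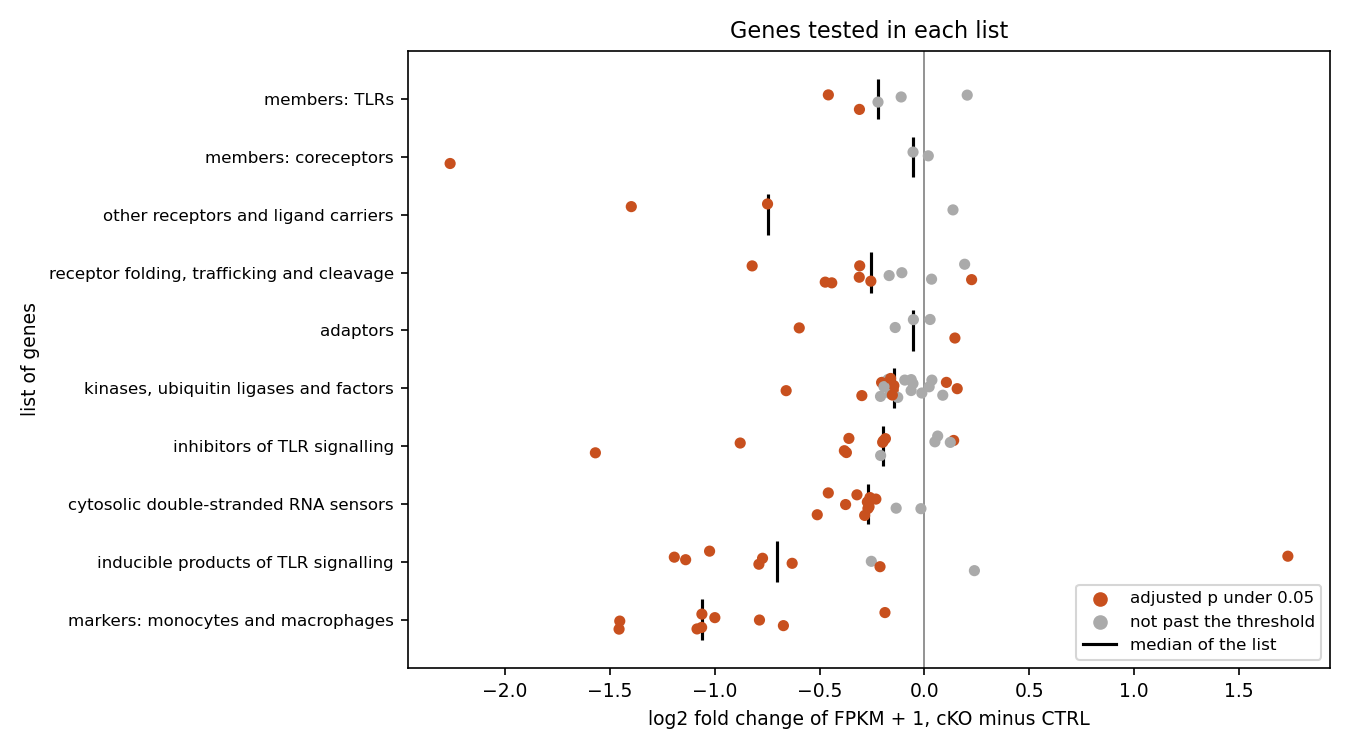
Log2 fold change of FPKM + 1, cKO minus control, of every gene tested in the lists of members, of the pathway and of monocyte and macrophage markers (points), with colour for an adjusted p under 0.05 and a bar at each list's median. Most points lie left of 0, *Cd14* is farthest left at -2.26, and *Ccl5* is farthest right at 1.73.

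The other mouse Toll-like receptors all lay under the filter, and they are named with values after these were seen. *Tlr8* had 13, 10 and 20 reads in control and 5, 0 and 1 reads in cKO libraries, and the added limma-voom fit gave an adjusted p of 0.00790 with a log2 fold change of -3.10, a size that depends on its smallest counts. *Tlr12* was at 0.696, 0.589 and 0.574 FPKM in control and at 0.975, 0.967 and 1.22 FPKM in cKO libraries. Its log2 fold change was 0.77 (adjusted p = 0.0168, limma-voom), a call lost without control library 2 (0.0506), control library 3 (0.0649) or cKO library 3 (0.0633). *Tlr13* had 4, 10 and 7 reads in control and 12, 11 and 14 reads in cKO libraries (adjusted p = 0.213, limma-voom). *Tlr5* had at most 6 reads in a library, and *Tlr11* had 2 reads in all.

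Markers of other cells that carry these receptors are given beside the members, and their part in the results was not tested. Of 10 B cell markers, 2 were tested, 1 of them higher in cKO LSKs, with summed levels of 30.5 to 35.4 FPKM in control and 30.3 to 32.6 FPKM in cKO libraries. These sums come almost wholly from *Cd79b*, which did not pass, with means of 31.1 FPKM in control and 29.2 FPKM in cKO LSKs. *Ms4a1*, *Cd22*, *Pax5*, *Ebf1*, *Fcer2a* and *Bank1* had means under 0.1 FPKM over the 6 libraries. The marker called higher was *Cd79a*, which reached the filter through its cKO libraries, with means of 0.743 FPKM in control and 1.52 FPKM in cKO LSKs. *Cd180* was measured at 3.91 to 4.64 FPKM in the same libraries. Of 10 dendritic cell markers none reached the filter, with sums of 2.07 to 2.89 FPKM in control and 2.29 to 2.88 FPKM in cKO libraries, and *Klk1*, *Xcr1*, *Cd209a* and *Batf3* had means under 0.1 FPKM over the 6 libraries. Named after their values were seen, *Clec9a* and *Itgax* were lower in all cKO than in all control libraries, and *Ccr9*, *Zbtb46* and *Batf3* were higher. Of 10 neutrophil markers 9 were tested, 5 lower and 2 higher, with sums of 256 to 269 FPKM in control and 234 to 263 FPKM in cKO libraries, and *Mmp9*, called higher, reached the filter through its cKO libraries. Of 10 T and NK cell markers 2 were tested, 1 lower and 1 higher, with sums of 355 to 365 FPKM and 287 to 293 FPKM that come almost wholly from *Nkg7*, the marker called lower, while *Lck* was the one called higher. Of those under the filter, *Cd3e*, *Cd3g*, *Cd4*, *Klrb1c*, *Gzma* and *Cd5*, named after their values were seen, were higher in all cKO than in all control libraries. *Ncr1* overlapped, and *Cd8a* had a mean under 0.1 FPKM over the 6 libraries. Groups did not overlap for 54.0% of all genes tested, a share that leaves out genes under the filter. *Cd3e*, a chain of the T cell receptor complex, had 0 reads in control and 53 in cKO libraries together, *Cd3g* had 9 and 119, and the granzyme gene *Gzma* had means of 0.425 and 1.56 FPKM. Of the LSK markers, *Flt3* and *Procr* were higher and *Kit* was lower in cKO LSKs. The monocyte and macrophage markers had a ratio of summed levels of 0.458, which lies between the ratio of means of *Cd14*, 0.173, and that of *Tlr2*, 0.678. Their sums come mostly from *Ly6c2* and *Lyz2*, with ratios of means of 0.364 and 0.578. Those of the 9 markers tested ran from 0.335 for *Cx3cr1* to 0.872 for *Cd68*.

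**Figure D5:**
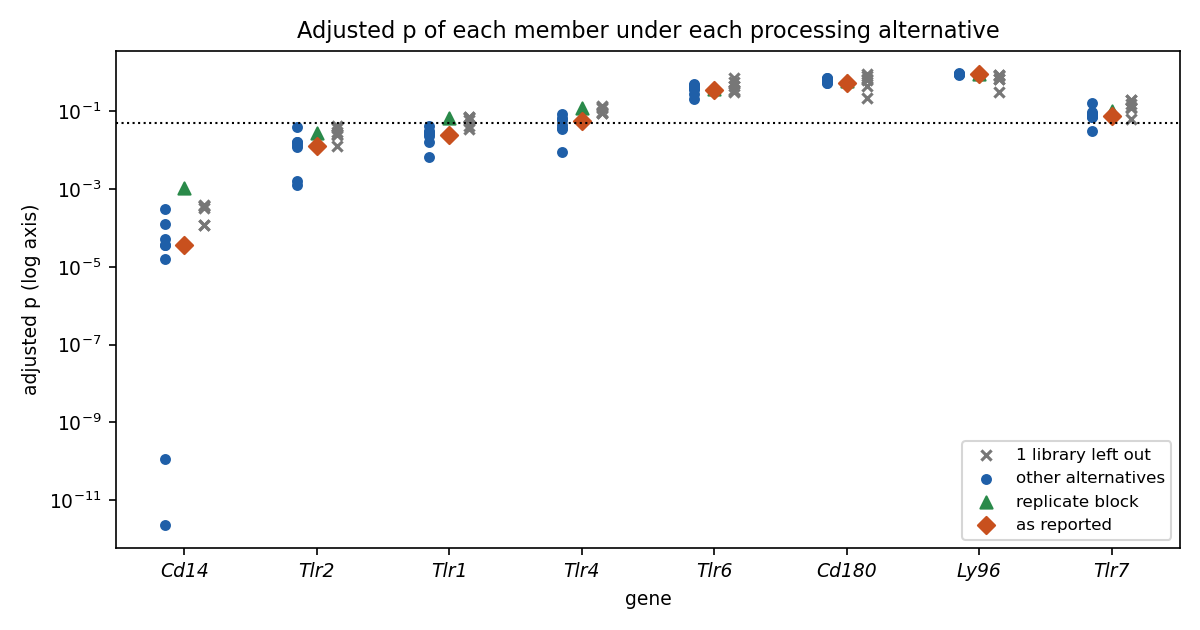
Adjusted p (log axis) of the 8 members tested, as reported (diamonds), with a replicate block (triangles), with 1 library left out (crosses) and under the other alternatives (circles); the dotted line is 0.05. *Cd14* and *Tlr2* stay under the line wherever they were tested, points of *Tlr1*, *Tlr4* and *Tlr7* lie on both sides, and those of *Tlr6*, *Cd180* and *Ly96* stay above it.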

How the data were processed

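The authors deposited FPKM values of 6 LSK libraries in 1 table, beside the length of each gene. Per the labels, the processing used HISAT2 2.0.5 and mm10, and the counting program and its strand setting are not given in the sources used here. FPKM times gene length gave a whole multiple of 1 step (tolerance 0.05 reads) for 100% of values, from which reads were recovered for depth, the floor and an alternative test. Floors from reads cover counting error only, and the intervals of log2 fold changes come from the spread between libraries.

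The test was limma 3.58.1 (lmFit, eBayes with trend, R 4.3.3) on log2(FPKM + 1), a scale that understates the change of low genes, two-sided, and p-values were adjusted (Benjamini-Hochberg) over the 11552 genes that reached a mean of 1 FPKM. Calls were made at an adjusted p under 0.05. The script was tested on simulated data. The members, lists and motifs were chosen with earlier results of these data known. Named genes were the members, *Myh9*, ratio partners, at most 3 called genes a list in each direction and the 5 nearest profiles of *Cd14* and *Tlr3*, and others are said to be chosen after their values were seen. Some genes that the rule or a list holds are not reported here. Alternatives were a pseudocount of 0.1, no filter, a mean of at least 5 FPKM, median-of-ratios and quantile scaling, no trend, limma-voom on reads, a replicate block, FPKM + 1 in ratios and leaving out each library. Libraries were taken to be unpaired, since deviations of same-numbered libraries had correlations of -0.0046, -0.011 and -0.026. Sequences came from GENCODE M21 and the RefSeq promoter table (GRCm38.p6), which held no entry matched for *Tlr4*, *Tlr7* or *Ly96*. Other software was Python 3.11.15, pandas 2.3.3, numpy 2.4.6, scipy 1.17.1 and matplotlib 3.10.9.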

Additional observations from a re-analysis of the deposited data

How the results depend on the processing

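*Cd14* and *Tlr2* kept their direction and their call in every alternative that tested them. The number of members called higher was 1 without a trend, against 0. The number called lower was 1 with a mean of at least 5 FPKM, where *Cd14* alone of the members enters, and 2 to 3 with each library left out. It was 4 with quantile normalization, without a trend and in limma-voom on the recovered reads, where *Tlr4* passed. In the added limma-voom fit of genes with at least 10 reads in all it was 5, where *Tlr4* passed and *Tlr9* enters. The pathway genes called higher, 6 as reported, were 2 to 5 and those called lower, 41 as reported, 33 to 40 with each library left out. The log2 fold change of *Ly96* turned to -0.12 without control library 2 and to -0.035 without cKO library 1, within a range of -0.12 to 0.087 with each library left out.

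Whether the same replicate numbers in both groups pair the libraries is not stated in the sources used here. The correlations of their deviations were all below 0.1, which with so few libraries cannot exclude pairing. With a replicate block, 2063 genes were called higher and 2044 lower, against 2295 and 2378, pathway genes called higher were 3, the adjusted p of *Tlr1* was 0.0665 and its call was lost, and those of *Tlr2*, *Cd14* and *Myh9* were 0.0270, 0.00105 and 0.0129 (limma).

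With FPKM + 1 in both terms, the difference in mean log2 ratio was 1.34 for *Cd180*/*Ly86* and reversed to 0.15 for *Tlr1*/*Tlr2*, and it shrank from -1.89 to -0.45 for *Tlr9*/*Tlr7* and from 0.47 to 0.24 for *Ly96*/*Tlr4*. With each library left out, it lay between -2.23 and -2.01 for *Cd14*/*Tlr4*, 0.32 and 0.57 for *Ly96*/*Tlr4*, 1.41 and 1.53 for *Cd180*/*Ly86*, 0.17 and 0.51 for *Tlr6*/*Tlr2*, and -2.50 and -1.08 for *Tlr9*/*Tlr7*. For *Tlr1*/*Tlr2* it lay between -0.24 and 0.11 and reversed to 0.0024, 0.029 and 0.11 without control library 1, control library 3 and cKO library 3. That of *Myh9* lay between -0.31 and -0.22. Depth limits *Tlr3* and *Tlr9*, and the cause of these changes was not tested.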
